A study of Mus musculus with 12 samples.

Results

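Thick ascending limb transport and secreted proteins are described here through 6 genes, found by gene name among the 22053 rows of the deposited expression table, in the whole kidneys of 12 C57BL/6 mice. The 6 genes are Slc12a1, Kcnj1 and Bsnd, which code for transport proteins, and Umod, Egf and Klk1, which code for secreted proteins. Each group held 4 mice, and each mouse gave 1 RNA-sequencing library. Control mice ate a diet without adenine from 8 to 16 weeks of age and received weekly i.p. PBS. CKD mice ate the same diet with 0.2% adenine from 8 to 16 weeks of age and also received weekly i.p. PBS. CKD+Fe mice ate the adenine diet over the same ages and were given iron dextran i.p. each week, 0.5 g/kg a dose, in place of PBS. The adenine diet is a model of chronic kidney disease (CKD), and a whole kidney holds all nephron segments together with other cells. The mice of each group are numbered 1 to 4 in the order of their labels, and equal numbers in different groups do not pair mice.

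The thick ascending limb of the loop of Henle takes up sodium chloride without water. The cotransporter NKCC2 (Slc12a1) brings sodium, potassium and chloride in from the urine, the channel ROMK (Kcnj1) returns potassium to the urine, and chloride leaves toward the blood through channels that need the subunit barttin (Bsnd). The same cells secrete uromodulin (Umod), the main protein of normal urine, and, together with the distal convoluted tubule, make the precursor of epidermal growth factor (Egf). Tissue kallikrein (Klk1), a serine protease that frees kinins from kininogen, is made mainly in the connecting tubule just downstream. ROMK is also found in the distal nephron and collecting duct, and barttin in the thin limb and intercalated cells.

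Levels are given in FPKM, which scale the fragments of a gene to its transcript length and to the mapped fragments of the library, so that genes can be set side by side. Umod, Slc12a1, Kcnj1 and Bsnd were measured in all 12 mice, as were Cldn16 and Cldn19, so these markers of the limb were present in every group. The FPKM of a library summed to between 503438 and 707843, and the depth in reads is unknown. Control mouse 3, CKD mouse 3 and CKD+Fe mouse 1 stood apart, with 595, 805 and 442 genes at least 2-fold from the other mice of their group, beside 41 to 225 in the other mice. Control mouse 3 had a summed principal cell marker level of 1744 FPKM (342 to 522 in the other controls), and CKD mouse 3 had a summed fibroblast marker level of 783 FPKM (379 to 389 in the other CKD mice). Several results are also given without these 3 mice.

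In control kidneys the order of mean levels was Umod, Klk1, Egf, Slc12a1, Kcnj1 and Bsnd. Umod stood at 1538 ± 307 FPKM (SD, n = 4), Klk1 at 1219 ± 138, Egf at 339.5 ± 57.1, Slc12a1 at 187 ± 46.1, Kcnj1 at 86.7 ± 14.7 and Bsnd at 26.8 ± 8.09. The ranges of Umod and Klk1 overlapped across control mice, although Umod was the higher of the pair in each of the 4, and all other neighbours in the order were separate. In CKD kidneys the order became Umod, Klk1, Slc12a1, Kcnj1, Egf and Bsnd, with Egf moved from the third to the fifth place. In CKD+Fe kidneys Egf was again above Kcnj1, in the fourth place, although the ranges of those neighbours overlapped.

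**Figure D1:**
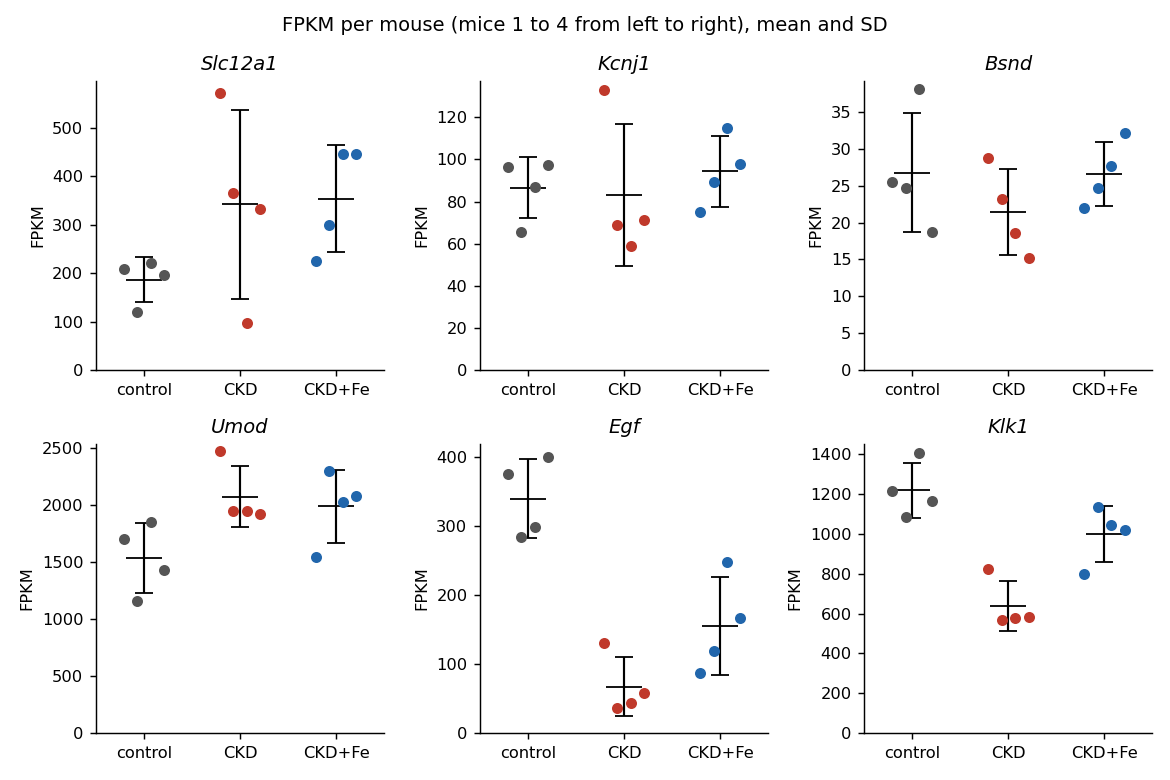
FPKM of the 6 genes (vertical axes, linear, from 0) in each of the 4 mice of the control, CKD and CKD+Fe groups, drawn as points from mouse 1 on the left to mouse 4 on the right, with black bars for the mean and SD. All CKD points of Egf and Klk1 lie below all control points, while the CKD points of Slc12a1 run from 97.1 to 573 FPKM.

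The comparison of CKD with control mice shows how adenine-induced disease altered these transcripts. Egf and Klk1 fell in CKD kidneys, to 0.198 and 0.523 times the control mean. Umod, the most abundant of the 6, Slc12a1, Kcnj1 and Bsnd did not pass the test in either direction. In a limma test of log2(FPKM + 1), 2 of the 6 genes were lower and 0 higher at an adjusted p under 0.05, beside 13.3% of all 13148 genes tested that were lower and 54.6% that were higher. At an unadjusted p under 0.05, 1 of the 6, Umod, was higher, beside 7468 genes higher and 1846 lower among all 13148. The median difference of the 6 genes was -0.21 on the log2 scale, beside 0.50 over all genes tested. Between CKD and control mice, the 4 values did not overlap for Egf and Klk1, which were lower, and for Umod, which was higher, while 10.5% of all genes tested were lower and 44.6% higher without overlap.

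NKCC2 transcript (Slc12a1, ENSMUSG00000027202, chr2:125152505-125230002 on GRCm38) had the widest spread of the transport genes in CKD mice. Control mice 1 to 4 had 209.7, 119, 222 and 196 FPKM. CKD mice 1 to 4 had 573, 366, 97.1 and 333 FPKM. CKD mice 1, 2 and 4 lay above all controls and CKD mouse 3 lay below all of them. The difference was 0.66 on the log2 scale (SE 0.43, 95% interval -0.27 to 1.58, limma adjusted p = 0.188). Without CKD mouse 3 it was 1.18, with an adjusted p of 0.00292, and without the 3 mice that stood apart it was 1.27, with an adjusted p of 0.00117. On the deposited FPKM, leaving out CKD mouse 3 alone, the one with the highest fibroblast marker sum, thus changed the call for Slc12a1. Of the fibroblast markers, Pdgfra was the lowest of the group in this mouse, at 13.4 FPKM, and the others were the highest. The part of those cells in the value was not tested.

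ROMK transcript (Kcnj1, ENSMUSG00000041248, chr9:32372418-32399192) was at 96.3, 65.8, 87.1 and 97.5 FPKM in control mice 1 to 4. CKD mice 1 to 4 had 133, 69.1, 58.8 and 71.4 FPKM. CKD mouse 1 was above every control and CKD mouse 3 below every control, and the difference was -0.12 on the log2 scale (SE 0.23, adjusted p = 0.656). Barttin transcript (Bsnd, ENSMUSG00000025418, chr4:106483456-106492283) was the least abundant, at 18.8 to 38.0 FPKM in controls and 15.3 to 28.8 FPKM in CKD mice. The Bsnd groups overlapped, with a difference of -0.30 (SE 0.22, adjusted p = 0.235).

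Uromodulin transcript (Umod, ENSMUSG00000030963, chr7:119462711-119479282) was at 1707, 1159, 1853 and 1432 FPKM in control mice 1 to 4. CKD mice 1 to 4 had 2476, 1953, 1950.5 and 1922 FPKM. All CKD mice were above all controls, and CKD mice 2, 3 and 4 lay close together. The difference was 0.45 on the log2 scale (SE 0.20, 95% interval 0.02 to 0.87), with a limma adjusted p of 0.0575, just outside the threshold. The exact permutation p was 0.0286, the smallest that 4 mice against 4 allow. Umod lay at the 47.1 percentile of the differences of all genes tested, so its difference was close to that of the typical gene on this scale. Without the 3 mice that stood apart it was 0.57 and was called higher (adjusted p = 0.0138).

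Epidermal growth factor transcript (Egf, ENSMUSG00000028017, chr3:129677565-129755316) had the largest difference of the 6. Control mice 1 to 4 had 376, 284, 298 and 400.2 FPKM. CKD mice 1 to 4 had 129.8, 36.8, 43.8 and 58.1 FPKM. The highest CKD value, in mouse 1, was less than the lowest control value. Egf fell by 2.49 on the log2 scale (SE 0.36, adjusted p = 5.34e-05), and 0.631% of all genes tested had a lower value. In whole tissue, fewer cells of a type and less RNA per cell cannot be told apart. The coefficient of variation of Egf was 16.8% in controls and 63.6% in CKD mice.

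Tissue kallikrein transcript (Klk1, ENSMUSG00000063903, chr7:44225360-44229618) was at 1218, 1084, 1409 and 1165 FPKM in control mice 1 to 4. CKD mice 1 to 4 had 824, 567, 580.1 and 580.3 FPKM. The groups did not overlap, and CKD mice 2, 3 and 4 were within a narrow range below CKD mouse 1. Klk1 fell by 0.95 on the log2 scale (SE 0.17, 95% interval -1.32 to -0.57, adjusted p = 0.000315). Without the 3 mice that stood apart, Egf fell by 2.40 (adjusted p = 0.000247) and Klk1 by 0.83 (adjusted p = 0.000702).

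Promoter sequence is shown for Egf and Klk1, which fell, and for Umod, the most abundant of the 6, which was not called. The stretches end at the start of transcription or, for Umod, where the deposited gene span begins, and are RefSeq sequence of build GRCm38.p6 on the strand of the gene, 5′ to 3′. They cover chr3:129755323-129755572 on the minus strand for Egf, chr7:44225110-44225359 on the plus strand for Klk1 and chr7:119479283-119479512 on the minus strand for Umod. Capitals mark matches to the motifs searched.
Egf: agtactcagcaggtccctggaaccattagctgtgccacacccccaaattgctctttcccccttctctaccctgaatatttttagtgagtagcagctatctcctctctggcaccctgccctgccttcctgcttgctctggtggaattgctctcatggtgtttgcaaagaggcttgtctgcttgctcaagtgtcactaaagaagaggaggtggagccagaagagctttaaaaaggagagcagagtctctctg
Klk1: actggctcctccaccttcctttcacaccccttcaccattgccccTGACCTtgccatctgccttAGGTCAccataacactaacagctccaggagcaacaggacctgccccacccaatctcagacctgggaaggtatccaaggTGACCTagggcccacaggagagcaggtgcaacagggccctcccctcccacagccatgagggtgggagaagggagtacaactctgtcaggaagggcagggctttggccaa
Umod: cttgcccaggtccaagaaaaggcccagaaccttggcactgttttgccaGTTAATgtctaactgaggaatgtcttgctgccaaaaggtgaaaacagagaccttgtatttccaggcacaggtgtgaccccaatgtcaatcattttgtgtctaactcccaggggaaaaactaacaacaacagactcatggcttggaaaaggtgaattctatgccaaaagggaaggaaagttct
The 250 bases upstream of the start were searched on both strands for the HNF1 motif GTTAAT, the TATA box TATAAA, the POU octamer ATGCAAAT and the nuclear receptor core AGGTCA, 4 motifs that do not overlap one another in these windows. Klk1 held the nuclear receptor core at 3 places, which begin 206, 187 and 109 bases before the start, and 14.0% of all 32807 mouse promoters in the table held it at least once. Umod held the HNF1 motif once, 202 bases before the start, as did 6.44% of all promoters. Egf has 2 starts in the table, and neither of its windows held any of the 4 motifs, nor did those of Slc12a1 and Kcnj1, and the TATA box and POU octamer, held by 12.4% and 1.6% of all promoters, were in none of the 6 windows of the 5 genes with an entry. A match describes these letters only.

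FPKM are relative to the total of each library, so the value of a gene also depends on the levels of the other genes. The median of all genes was 0.50 higher in CKD than in control mice, and dividing each library by its median-of-ratios factor, which sets the typical gene level equal between libraries, brought this median to -0.03. On the rescaled values Egf fell by 3.10 (adjusted p = 1.21e-05) and Klk1 by 1.57 (adjusted p = 1.15e-05), so both falls were present on either scale. Kcnj1 and Bsnd were lower on the rescaled values, at -0.73 (adjusted p = 0.0146) and -0.90 (adjusted p = 0.00269). Umod turned from 0.45 to -0.17 (adjusted p = 0.496) and Slc12a1 stood at 0.04 (adjusted p = 0.942). Quantile normalization, which gives all libraries the same distribution of values, also brought the median of all genes to -0.03, yet Umod was then called higher, at 0.81 (adjusted p = 0.00626). Slc12a1 was at 1.01 (adjusted p = 0.094) and Kcnj1 at 0.00222 (adjusted p = 0.995) after it. Bsnd fell by 0.61 (adjusted p = 0.0327), Egf by 2.24 (adjusted p = 0.000723) and Klk1 by 0.65 (adjusted p = 0.00947). Egf and Klk1 were thus called lower on all 3 scales, and Bsnd on the 2 that were rescaled. The direction of Umod in CKD depended on the scale, and it was called higher in 5 of 9 alternative settings.

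**Figure D2:**
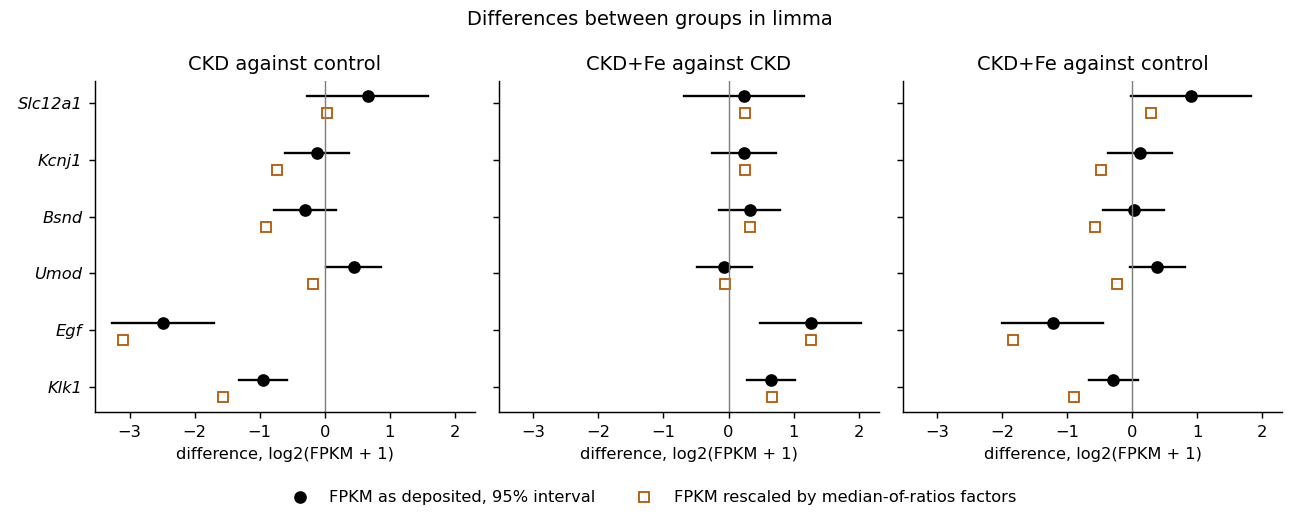
Difference in log2(FPKM + 1) between groups (horizontal axes) for the 6 genes (rows) in the 3 comparisons, as limma gave it on the deposited FPKM (black, with 95% interval) and after median-of-ratios rescaling (open squares). Rescaling moves every gene to the left in both comparisons with control mice, turning Umod from 0.45 to -0.17 in CKD, and leaves CKD+Fe against CKD almost in place.

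Differences between genes within a mouse do not move with such a factor. All 15 pairs of the 6 genes were compared as differences of log2(FPKM + 1) within a mouse, with an exact two-sided permutation test over the 70 arrangements of 4 mice against 4 and adjustment over the 15 pairs. Between CKD and control mice, 9 of the 15 pairs had an adjusted p of 0.0476, each at the smallest exact p of 0.0286. Egf fell against every one of the other 5 genes. The largest gaps were Egf against Slc12a1 at -3.14 and Egf against Umod at -2.93. Klk1 fell by 1.39 against Umod, by 0.83 against Kcnj1 and by 0.64 against Bsnd, while against Slc12a1 the exact p was 0.0857. Umod was 0.75 higher against Bsnd. The 3 transport genes were not separated from one another, with exact p between 0.143 and 0.571. The adjustment allows a call only where at least 9 of the 15 pairs reach the smallest exact p, and the count was 0 without any one of control mice 1 to 4 or CKD mice 1, 2 and 4 and 11 without CKD mouse 3.

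Klk1 against Umod, a pair singled out after its values were seen, had little spread within each group. The ratio of Klk1 to Umod FPKM was 0.714, 0.936, 0.76 and 0.814 in control mice 1 to 4. It was 0.333, 0.29, 0.297 and 0.302 in CKD mice 1 to 4. In CKD+Fe mice 1 to 4 it was 0.518, 0.493, 0.515 and 0.49. No group overlapped another, and the CKD+Fe mice lay between the other groups, including CKD+Fe mouse 1, whose Umod and Klk1 levels were both the lowest of its group. The ratio of Egf to Umod was 0.161 to 0.28 in control mice, 0.0188 to 0.0524 in CKD mice and 0.0515 to 0.122 in CKD+Fe mice, and the CKD and CKD+Fe ranges overlapped at their ends.

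**Figure D3:**
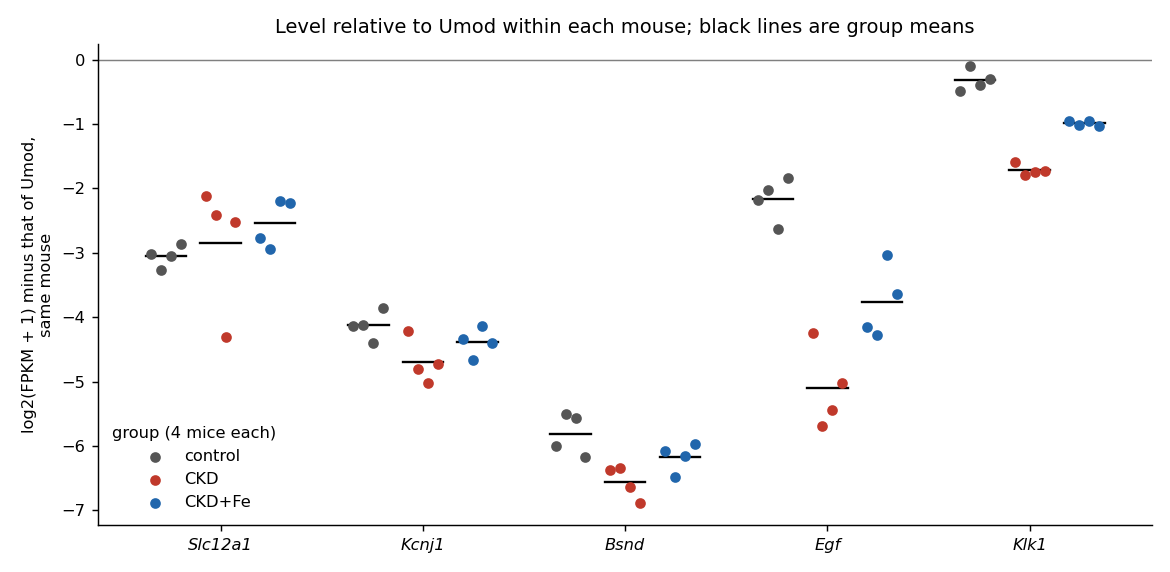
Log2(FPKM + 1) of 5 genes minus that of Umod in the same mouse (vertical axis), for each of the 4 mice of each group, with black lines at the group means. The Klk1 points form 3 bands that do not overlap, at -0.49 to -0.10 in control, -1.78 to -1.59 in CKD and -1.03 to -0.95 in CKD+Fe mice.

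Comparing CKD+Fe with CKD mice asks how iron dextran therapy altered these transcripts in the diseased kidney. Egf and Klk1 had the largest differences of the 6, both toward higher levels with iron, but neither passed the adjusted test. In limma 0 of the 6 genes were called in either direction, beside 0.00761% of all genes tested that were higher, which is 1 gene, and 0.0% that were lower. At an unadjusted p under 0.05, 2 of the 6 genes, Egf and Klk1, were higher and 0 lower, beside 431 genes higher and 359 lower among all 13148. The median difference of the 6 genes was 0.28, beside -0.001 over all genes. The CKD mice enter this comparison and the one with control mice, so the falls in CKD and the differences with iron are not independent of one another.

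Egf was at 86.1, 118, 248 and 167 FPKM in CKD+Fe mice 1 to 4. CKD+Fe mice 3 and 4 were above all CKD mice, whereas mice 1 and 2 were below CKD mouse 1 and above CKD mice 2, 3 and 4. The mean was 155 ± 70.4 FPKM (SD, n = 4) against 67.1 ± 42.7 in CKD mice, a difference of 1.26 on the log2 scale (SE 0.36, 95% interval 0.48 to 2.04, unadjusted p = 0.00378, limma adjusted p = 0.458). Of all genes tested, 99.9% had a smaller difference. The exact permutation p was 0.0857. Without the 3 mice that stood apart the Egf difference was 1.36 (limma adjusted p = 0.106).

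Klk1 was at 801, 1134, 1046 and 1021 FPKM in CKD+Fe mice 1 to 4. CKD+Fe mice 2, 3 and 4 were above all CKD mice, and CKD+Fe mouse 1 was just below CKD mouse 1. The mean was 1001 ± 142 FPKM against 638 ± 124 in CKD mice, a difference of 0.66 (SE 0.17, 95% interval 0.29 to 1.03, unadjusted p = 0.00201, adjusted p = 0.40), and the exact permutation p was 0.0571. With array quality weights, which count libraries that stand apart for less, the adjusted p for Klk1 was 0.0475. Over 9 alternative settings it ran from 0.0475 to 0.668. Without the 3 mice that stood apart the Klk1 difference was 0.72 (limma adjusted p = 0.0684).

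Umod was at 1545, 2299.9, 2033 and 2085 FPKM in CKD+Fe mice 1 to 4, with 3 of them inside the range of the CKD mice and mouse 1 below it. Umod had a difference of -0.07 (95% interval -0.49 to 0.36, adjusted p = 0.993). Slc12a1 was at 225, 299, 445 and 446 FPKM in CKD+Fe mice 1 to 4, all inside the range of the CKD mice, with a difference of 0.24 (95% interval -0.68 to 1.17, adjusted p = 0.993). That interval spans more than the Klk1 difference in both directions. Kcnj1 was at 75.1 to 115 FPKM and Bsnd at 22.0 to 32.2 FPKM in CKD+Fe mice, with differences of 0.24 (95% interval -0.25 to 0.73) and 0.32 (95% interval -0.15 to 0.80). For none of the 6 genes were all CKD+Fe mice beyond all CKD mice, beside 1.35% of all genes tested that were higher and 1.09% that were lower without overlap.

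Of the 15 pairs, 0 passed the adjusted threshold between CKD+Fe and CKD mice, and 2 had an exact p of 0.0286 before adjustment (adjusted p = 0.171). These were Egf against Kcnj1, 1.02 higher with iron, and Klk1 against Umod, 0.72 higher with iron. In both pairs every CKD+Fe mouse lay above every CKD mouse.

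Between CKD+Fe and control mice, Egf was the gene of the 6 called lower on the deposited FPKM, at 0.456 times the control mean. Egf fell by 1.22 on the log2 scale (SE 0.36, adjusted p = 0.00926), and all CKD+Fe mice were below all controls (exact permutation p = 0.0286). It was called in 8 of 9 alternative settings, and not with quantile normalization (-0.97, adjusted p = 0.0817). Of the 6 genes, 1 was lower and 0 higher in limma (0 higher also at an unadjusted p under 0.05), beside 11.0% of all genes lower and 54.4% higher. At the unadjusted threshold 7497 of all 13148 genes were higher. The median of the 6 was 0.07, beside 0.50 over all genes. Slc12a1 was above all controls in all CKD+Fe mice, at 354 ± 110 FPKM, with a difference of 0.90 (95% interval -0.02 to 1.82, adjusted p = 0.0797). Slc12a1 was called in 3 of 9 alternative settings, among them the fit without the 3 mice that stood apart (1.19, adjusted p = 0.00209). Without overlap were thus Egf below and Slc12a1 above the control mice, while 9.85% of all genes tested were lower and 50.4% higher without overlap.

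Klk1 was at 0.821 times its control mean in CKD+Fe mice, a difference of -0.29 (95% interval -0.66 to 0.08, adjusted p = 0.153). CKD+Fe mice 1, 3 and 4 were below all controls and mouse 2 was within their range. On the rescaled values Klk1 fell by 0.90 (adjusted p = 0.00115), Bsnd by 0.57 (adjusted p = 0.037) and Egf by 1.83 (adjusted p = 0.001). Klk1 and Bsnd were each called in only 1 of 9 alternative settings. With quantile normalization Klk1 was at -0.05 (adjusted p = 0.832) and Bsnd at -0.27 (adjusted p = 0.342). Without the 3 mice that stood apart Klk1 was at -0.11 (adjusted p = 0.533). Umod stood at 0.38 on the deposited values (adjusted p = 0.103), at 0.59 without the 3 mice that stood apart (adjusted p = 0.0124) and at -0.23 on the rescaled values (adjusted p = 0.368). Of the 15 pairs, 6 had an exact p of 0.0286, with an adjusted p of 0.0714, and 0 passed the adjusted threshold.

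Within the CKD and CKD+Fe groups, single mice were at the edge for every one of the 6 genes. CKD mouse 1 was the highest of the CKD mice for all 6 genes, and CKD+Fe mouse 1 was the lowest of the CKD+Fe mice for all 6 genes, on the deposited and on the rescaled values. CKD mouse 1 had the lowest sum of the 7 tubule injury markers of its group, 11959 FPKM beside 19580 to 21469, and the highest sum of the 12 proximal tubule markers, 1968 FPKM beside 1024 to 1684. CKD+Fe mouse 1 had the lowest proximal tubule sum of its group, 1059 FPKM beside 1991 to 2478, and the highest sum of the 7 macrophage markers, 1762 FPKM beside 889 to 1202. The part of these other cells in the levels of the 6 genes was not tested. Among control mice, mouse 2 was the lowest for 5 of the 6 genes and mouse 3 the highest for 4, on both scales.

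The partners of NKCC2 and ROMK in salt transport had a median difference of 0.13 in CKD over 8 genes, beside 0.50 over all genes tested, and 6 of them did not pass the test. Fxyd2, the gamma subunit of the sodium pump, fell by 1.14 (adjusted p = 0.0012) and was at -1.76 on the rescaled values. The claudins of the limb set the path between cells. Cldn19 and Cldn16, which form the pore for calcium and magnesium, were 1.23 and 0.85 higher. Cldn10, which passes sodium in the limb, fell by 1.14. These are whole kidney values, and the part of other segments in the falls of Fxyd2 and Cldn10 was not tested. After median-of-ratios rescaling Cldn10 fell by 1.76 (adjusted p = 1.84e-05), while Cldn19 (adjusted p = 0.061) and Cldn16 (adjusted p = 0.182) did not pass. With quantile normalization Cldn19 and Cldn16 were called higher, at 0.97 (adjusted p = 0.00545) and 0.50 (adjusted p = 0.0234). Cldn10 was called lower there too, at -0.82 (adjusted p = 0.00748). Cldn14 was below the level tested.

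Of 9 regulators of transport in the limb, limma called 5 higher and 0 lower (1, Avpr2, lower at an unadjusted p under 0.05), with a median of 0.70. Of all genes tested 54.6% were higher and 13.3% lower, so the count is close to the background and is no result about the regulators. Maged2, which keeps NKCC2 at the cell surface, rose by 1.65 (SE 0.16, adjusted p = 2.55e-06), and Adcy6, an adenylyl cyclase downstream of the vasopressin receptor, by 1.0 (adjusted p = 1.29e-05). Both were also called on the rescaled values, at 1.08 and 0.41. Casr, the calcium-sensing receptor that restrains transport, was 0.93 higher and Stk39, a kinase that activates NKCC2, 0.89 higher. Neither was called after median-of-ratios rescaling (adjusted p = 0.370 and 0.192). With quantile normalization Stk39 was called higher (0.53, adjusted p = 0.0435) and Casr was not called (0.25, adjusted p = 0.608). Of 5 transcription factors of the segment, Irx2 rose by 0.60 and Irx1 fell by 0.84. After rescaling Irx1 was at -1.43 and Irx2 at 0.01.

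Of 13 genes for receptors, other ligands and activating proteases of the EGF family, 10 were abundant enough to be tested, and limma called 7 higher and 0 lower on the deposited FPKM (0 lower also at an unadjusted p under 0.05), beside 54.6% higher and 13.3% lower of all genes tested. The median was 0.85, beside 0.50 over all genes. The ligand gene Btc, named after its values were seen, was at -0.51 (adjusted p = 0.0578) after median-of-ratios rescaling and was called lower after quantile normalization, at -0.83 (adjusted p = 0.00692). Erbb4, a receptor of neuregulins and of heparin-binding EGF, rose by 1.53 (SE 0.26, adjusted p = 0.000169), from 1.25 ± 0.404 to 5.78 ± 2.38 FPKM. Adam17 and Adam10, proteases that shed EGF family ligands from the membrane, rose by 1.31 and 1.27. The ligand gene Hbegf rose by 1.15, from 7.69 ± 1.51 to 19.0 ± 7.04 FPKM. Erbb4, Adam17 and Adam10 were also called on the rescaled values, at 1.11, 0.74 and 0.67, and Hbegf was not (0.59, adjusted p = 0.131). The receptor gene Egfr was at 7.95 ± 0.649 FPKM in control and 9.90 ± 2.53 FPKM in CKD mice (adjusted p = 0.172). The CKD mean of Hbegf, 19.0 FPKM, was below that of Egf, 67.1 FPKM.

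Around Klk1, 5 of 7 genes of the kallikrein-kinin system were tested, and 1 was higher and 1 lower in CKD. Kng1, a kininogen and so the substrate of kallikrein, was low, and rose by 1.33 (adjusted p = 2.23e-05) from 0.504 ± 0.204 to 2.83 ± 0.776 FPKM. It was at 1.04 after rescaling. Kng2, the more abundant kininogen gene, named after its values were seen, was at 178 ± 24.6 FPKM in control and 223 ± 36.3 FPKM in CKD mice and was not called (0.32, adjusted p = 0.105). It was at -0.30 (adjusted p = 0.152) after median-of-ratios rescaling and at 0.69 (adjusted p = 0.00638) after quantile normalization. Ace, which breaks down bradykinin, fell by 2.15 (adjusted p = 9.73e-05) and was at -2.74 after rescaling. Bdkrb1, an inducible kinin receptor, was listed at 0 in all control mice. The 13 Klk1b genes, close paralogs of Klk1 whose reads can be hard to tell from it, summed to 4.48 to 12.4 FPKM per mouse over all 12 mice. The paralogs with a mean of at least 1 FPKM in a group, Klk1b3, Klk1b5, Klk1b8, Klk1b9 and Klk1b24, had group means of at most 2.12 FPKM, beside 638 FPKM or more for Klk1. Of 4 paralogs tested, 1, Klk1b3, was higher in CKD (0.54, adjusted p = 0.0102), at 0.31 (adjusted p = 0.106) after median-of-ratios rescaling and at -0.20 after quantile normalization.

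Hpn, the protease hepsin that releases uromodulin from the cell surface, fell by 1.22 (adjusted p = 6.9e-05), from 341 ± 79.6 to 146 ± 29.4 FPKM, and was at -1.84 after rescaling. Gp2, a relative of Umod, was 0.55 higher (adjusted p = 0.00875), at 0.12 after median-of-ratios rescaling and -0.28 after quantile normalization. Hpn is also made in the proximal tubule, whose markers fell, and the part of that segment in the fall of Hpn was not tested. In CKD+Fe against CKD, limma called none of the genes in these lists, and those at an unadjusted p under 0.05 included Wnk4 and Klk1b5, which were higher, and Adam10, which was lower.

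**Figure D4:**
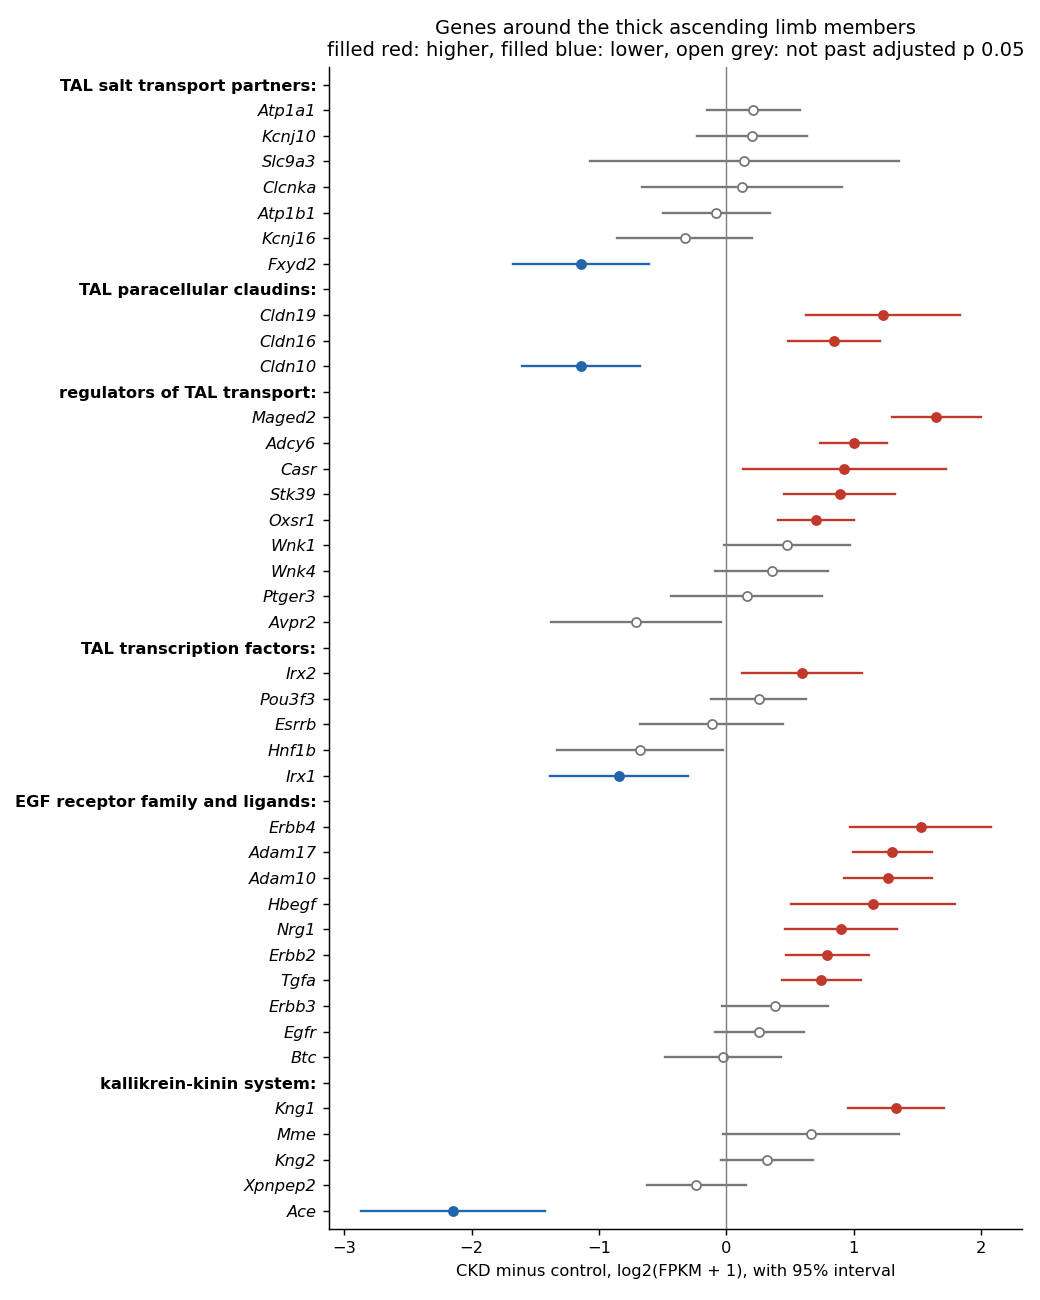
Difference between CKD and control mice in log2(FPKM + 1) with its 95% interval (horizontal axis) for tested genes of 6 lists around the limb, EGF and kallikrein (rows), on the deposited FPKM, with TAL for thick ascending limb. Filled points passed an adjusted p of 0.05. In the EGF receptor family list 7 of the 10 genes were called higher, beside 54.6% of all genes tested (3, Erbb4, Adam17 and Adam10, also after median-of-ratios rescaling).

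Across the 6 lists on limb transport, its regulators, EGF receptors and kinins, 17 of 40 genes tested were higher and 4 lower in CKD. Beside 54.6% higher and 13.3% lower over all genes tested, these are 42.5% and 10%. After median-of-ratios rescaling 6 were higher and 10 lower, so the split followed the scale. Against control mice, CKD+Fe mice had 19 of these genes (47.5%) higher and 5 (12.5%) lower, beside 54.4% and 11.0% of all genes tested, and 7 higher and 11 lower after rescaling.

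Markers of other cells moved in the same comparison. Of 12 proximal tubule markers 11 fell in CKD, and their sum went from 5691 to 8069 FPKM in control mice to 1024 to 1968 FPKM in the CKD group and 1059 to 2478 FPKM with iron. All 7 tubule injury markers rose, with sums of 601 to 859, 11959 to 21469 and 8739 to 15731 FPKM in the same order of groups. All 7 macrophage and all 6 fibroblast markers rose, although the fibroblast marker Acta2 was not called after median-of-ratios rescaling (adjusted p = 0.0795). Of 4 distal convoluted tubule markers 1, Trpm6, rose by 1.23 and 1, Pvalb, fell by 3.42. Slc12a3 of that list was at 193 ± 71.6 FPKM in control and 284 ± 78.5 FPKM in CKD mice and was not called. It was called higher after quantile normalization (0.97, adjusted p = 0.0388) and was at -0.02 (adjusted p = 0.971) after median-of-ratios rescaling. Calb1, a marker of the connecting tubule that makes Klk1, was at 82.2 ± 19.4 FPKM in control and 107 ± 42.3 FPKM in CKD mice (adjusted p = 0.472). On the deposited FPKM, 1 of 5 principal cell markers was higher and 2 lower, and 1 of 5 intercalated cell markers was higher and 2 lower. Of 4 inner medulla and 6 urothelium markers 0 were called in limma there, nor did any have an unadjusted p under 0.05. After median-of-ratios rescaling the principal cell markers Aqp2, Aqp3 and Fxyd4 were called lower. The intercalated cell markers Atp6v1g3, Slc4a1, Slc26a4 and Foxi1 were then lower and Atp6v0d2 higher. Akr1b3 of the inner medulla was then lower (-1.27, adjusted p = 0.0142), but was not called after quantile normalization (adjusted p = 0.0712). No defining marker was at 0 in all mice of a group. The part of these cells in the falls of Egf and Klk1 was not tested.

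The genes most like each of the 6 over the 12 mice were ranked by the root mean square of the differences in log2(FPKM + 1) after each gene was centred on its own mean, with smaller values for closer profiles. Paqr5, Laptm4b and Hoxd8 were closest to Umod, at 0.151, 0.153 and 0.154. Cdkl1, Lrrc31 and Sim1 were closest to Slc12a1, at 0.258, 0.263 and 0.303. Cox7b, Hebp1 and Tmem86b were closest to Klk1, at 0.182, 0.189 and 0.20. The nearest genes to Egf, Slc16a4, Acsm5 and Chpt1, were farther away, at 0.401, 0.422 and 0.429. Slc16a4 went from a mean of 58.6 FPKM in control mice to 12.4 FPKM in the CKD group and 18.3 FPKM with iron. The closest to Kcnj1 were Prps2, Lman1 and Hnmt, at 0.171 to 0.19, and to Bsnd were Ntf3, Smim5 and Ocel1, at 0.161 to 0.19. These ranks describe likeness in the same libraries and carry no test.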

How the data were processed

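The data were whole kidney RNA-sequencing libraries of 12 mice in 3 groups of 4. The authors made stranded mRNA libraries, sequenced single-end reads on a HiSeq4000 and, per the submitters' processing notes, used bcl2fastq 2.19, STAR 2.5.2, Cufflinks 2.1.1 and build GRCm38. The annotation release is not given in the sources used here. The authors deposited FPKM per gene and mouse, not counts, so no count test was made although the study tested counts. Depth is unknown, so no counting error is given. Of the values, 30 in 17 genes, none of them listed here, were marked failed and treated as missing. The R package limma (version 3.58.1, R 4.3.3) was run on log2(FPKM + 1), with a variance trend and 12 mice in 1 fit, over the 13148 genes that reached 1 FPKM in 4 mice or more (two-sided, Benjamini-Hochberg over all genes, threshold 0.05). The fit was tested on simulated data. A fold change on this scale understates the change of low genes. Single genes and within-mouse differences of gene pairs were compared by exact permutation. Genes named were the 6 genes, up to 4 called genes of each list by size of change, Klk1b paralogs with a mean of at least 1 FPKM, the 3 most alike genes and a few markers; others were chosen after their values were seen. The 6 genes, the lists and the 3 mice named as standing apart were chosen with earlier results of these data known. Alternatives were other pseudocounts, filters, scalings, weights, sample sets and the study's cutoff. Promoters were found for 5 of the 6 genes. Bsnd had no entry. The result of 1 listed gene is not reported here, although counts over lists include it.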

Additional observations from a re-analysis of the deposited data

Results flagged for a closer look

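CKD mouse 1 was far above the other 3 CKD mice for 3 of the 6 genes. Its Kcnj1 level was 133.031 FPKM, with a gap to the next mouse of 0.83 of the range of the group. Its Umod level was 2475.87 FPKM (gap 0.944 of the range) and its Klk1 level 824.262 FPKM (gap 0.947 of the range). All 3 gaps are above Dixon's 95% limit for 4 mice, and of the 18 sets of 4 values examined these 3 passed it, where chance flags about 1 in 20. They belong to the same mouse, so they are not separate events.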

How the results depend on the processing

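Egf and Klk1 were called lower in CKD under all 9 alternative settings of the fit and without any single mouse. Their differences ran from -3.10 to -2.24 and from -1.57 to -0.65 over the settings. The other calls depended on scale or on single mice. In CKD against control, 0 of the 6 genes were higher, but 1 was with a filter at a mean of 5 FPKM, with quantile normalization and with no variance trend, and 2 were with array quality weights, without the 3 mice that stood apart, and at the study's cutoff of an adjusted p of 0.5. Leaving out 1 mouse gave 0 to 1. The count lower was 4 after median-of-ratios rescaling, at an adjusted and at an unadjusted p under 0.05. At the unadjusted threshold 1846 of all 13148 genes were lower on the deposited FPKM and 4340 after this rescaling. Umod reversed to -0.17 there. Kcnj1 reversed to 0.00222 with quantile normalization, 0.0514 with array quality weights, 0.0289 without the 3 mice and 0.0209 without CKD mouse 3, and ran from -0.368 to 0.0209 with 1 mouse left out. The companion genes, 17 higher and 4 lower, were 6 and 10 after median-of-ratios rescaling, 8 lower with quantile normalization, and 26 and 8 at the cutoff of 0.5.

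In CKD+Fe against CKD, the count higher was 2 at the cutoff of 0.5 and 1 with array quality weights. Slc12a1 reversed to -0.0782 without the 3 mice and -0.276 without CKD mouse 3, and ran from -0.276 to 0.573 with 1 mouse left out. Umod reversed to 0.0228 without the 3 mice, 0.0207 without CKD mouse 1 and 0.0499 without CKD+Fe mouse 1, and ran from -0.141 to 0.0499.

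In CKD+Fe against control, the count higher was 2 at the cutoff of 0.5, with array quality weights and without the 3 mice, 1 in a fit of only those groups, and 0 to 1 without a single mouse. The count lower was 2 at the cutoff of 0.5, 3 after median-of-ratios rescaling and 0 with quantile normalization, where Egf was at -0.97 (adjusted p = 0.0817). At an unadjusted p under 0.05, 1550 of all 13148 genes were lower on the deposited FPKM and 4152 after median-of-ratios rescaling. Reversals were Kcnj1 at -0.48, Bsnd at -0.57 and Umod at -0.23 after median-of-ratios rescaling, Bsnd at -0.27 with quantile normalization, Kcnj1 at -0.0039 without control mouse 2 (range -0.0039 to 0.224 with 1 mouse left out), and Bsnd below 0 without control mouse 2, control mouse 4 or CKD+Fe mouse 4 (range -0.126 to 0.201). Companion genes higher were 7 after median-of-ratios rescaling and 9 with quantile normalization. Those lower were 11 and 8 there, 3 with no filter, and 3 to 5 without a single mouse.

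The 9 pairs called in CKD against control became 0 with a pseudocount of 0.1 and 0 to 11 without a single mouse. With fewer than 9 pairs at the smallest exact p, the adjusted p cannot pass. Without the 3 mice that stood apart, no pair could pass, since 3 mice against 3 cannot give an exact p below 0.10. In CKD+Fe against control, 9 pairs were called with quantile normalization. The cause of these changes was not tested unless stated. No paired analysis was possible because the groups share no replicate numbers in the labels.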
